A study of Homo sapiens with 6 samples.

Results

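The genes described are 10 encoding RNA-binding proteins of the La-related (LARP) and poly(A)-binding (PABP) families: LARP1, LARP1B, LARP4, LARP4B, LARP6, LARP7, SSB, PABPC1, PABPC4 and PABPN1. They were taken by symbol from a table of 19892 genes, and all 10 were found. RNA came from HEK293, a human embryonic kidney line, either with a CNBP knockout made by CRISPR-Cas9 or wild type. Both groups were grown in the same medium and have 3 libraries each. CNBP is a zinc-knuckle nucleic-acid-binding protein, and the series title concerns its binding to G-rich stretches of coding sequence and the translation of those mRNAs. The table holds the authors' single FPKM value per gene and group (fragments per kilobase of transcript, scaled to the mapped fragments), so that no spread between libraries, standard deviation or p-value accompanies any value, no difference has a replicate check, and the depth is unknown. Nothing in the labels says whether the knockout libraries came from 1 clone or several, or from separate cultures.

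The La motif is an RNA-binding fold that gives the LARP family its name, and its members have taken on different RNAs. LARP1 binds the cap and the terminal oligopyrimidine (TOP) tract with which the mRNAs of ribosomal proteins and several translation factors begin, and it links their translation to the kinase mTORC1. LARP4 binds poly(A), and both LARP4 and LARP4B bind cytoplasmic PABP. PABPC1 and PABPC4 coat the poly(A) tail in the cytoplasm and bridge it to the initiation factor eIF4G, while PABPN1 binds the growing tail in the nucleus. LARP6, LARP7 and SSB are related through the La motif but are best known for other ligands: a stem-loop of type I collagen mRNAs, the 7SK RNA, and the uridine-rich ends of RNA polymerase III transcripts.

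CNBP mRNA was at 214 FPKM in the knockout column and at 202 FPKM in the wild-type column. It was not lower in the knockout column and therefore does not check the labels, and every direction below rests on the column names. VIM, an intermediate filament gene that HEK293 cells express, had 520 FPKM in the knockout column and 510 FPKM in the wild-type column, and PTPRC, a leukocyte gene, 0.223 FPKM in the knockout column and 0.277 FPKM in the wild-type column. These marker genes were chosen with values of the series known. Ratios are log2 of knockout over wild type. They were compared over 13219 genes with at least 1 FPKM in one column and above 0 in both, whose median ratio was -0.01 and whose middle 50% ran from -0.15 to 0.12. All 10 genes passed that minimum.

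None of the 10 genes was higher or lower by 1.5-fold in the knockout column. Over all compared genes, 1.48% were higher and 2.78% lower by that fold, 4.27% in all, so that a count of 0 among 10 is close to what the whole table shows. At 1.2-fold, LARP6 and LARP7 were lower and none was higher, against 13.2% of all compared genes lower, 8.62% higher and 21.8% in all. Those shares depend on level. With a mean of 50 FPKM or more, the class of LARP7, 143 of 2528 genes were lower and 111 higher. From 5 to 50 FPKM, the class of LARP6, 798 of 7740 were lower and 525 higher. Under 5 FPKM, where none of the 10 lies, 800 of 2951 were lower and 503 higher. Of the other 8, LARP1 was the farthest from equality, 1.11-fold higher. Of the 10 ratios, 6 were above 0 and 4 below, against 48.7% above 0 over all compared genes, and their median was 0.05. The median distance from 0 was 0.09, against 0.13 over all compared genes. The latter includes the genes under 5 FPKM, whose middle 50% ran from -0.29 to 0.17. At 50 FPKM or more it ran from -0.09 to 0.11, so the 2 distances are not matched for level.

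**Figure D1:**
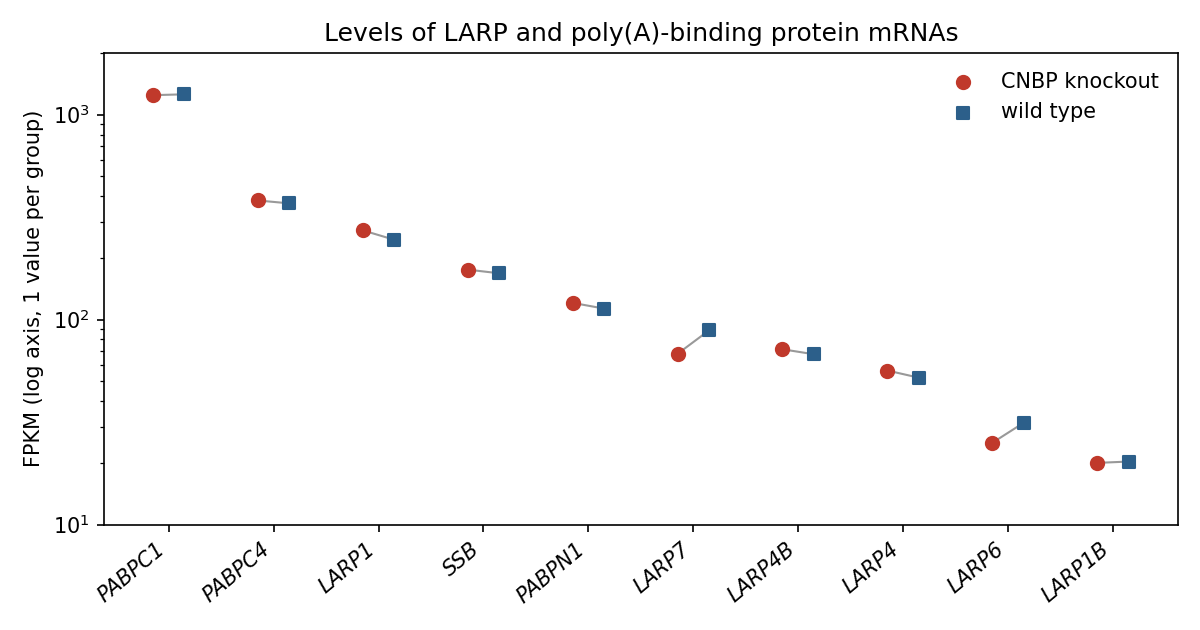
FPKM of the 10 genes on a log axis, 1 value per group, with the CNBP knockout value (circle) left of the wild-type value (square), in order of the wild-type level. The 2 groups lie close together for each gene, from PABPC1 (knockout 1245, wild type 1257 FPKM) to LARP1B (knockout 19.99, wild type 20.3 FPKM), and LARP7 and LARP6 show the steepest lines.

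The levels spanned a wide range that both columns shared. PABPC1 ranked as number 46 of the compared genes in the knockout column and number 45 in the wild-type column. PABPC4, LARP1, SSB and PABPN1 followed in that order in both columns, and LARP1B was the least abundant of the 10 in both. LARP7 stood below LARP4B in the knockout column and above it in the wild-type column, which was the only exchange of places.

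The cytoplasmic poly(A)-binding proteins were nearly identical between the columns. PABPC1 had 1245 FPKM in the knockout column and 1257 FPKM in the wild-type column, a log2 ratio of -0.01. PABPC4 had 381 FPKM in the knockout column and 369 FPKM in the wild-type column, a ratio of 0.05. Their sum was 1627 FPKM in the knockout column and 1626 FPKM in the wild-type column, of which PABPC1 made up 76.6% in the knockout column and 77.3% in the wild-type column. Fragments of PABPC1 can be hard to place: 12.0% of the 50-base windows of its longest-coding transcript also occur in other genes, among them the retrogene PABPC3 and 6 pseudogenes. PABPC3 itself stood at 0.246 FPKM in the knockout column and 0.119 FPKM in the wild-type column. PABPC1 and PABPC4 share no 50-base window, and their coding sequences are identical at 74.3% of aligned bases.

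PABPN1, the nuclear poly(A)-binding protein, had 121 FPKM in the knockout column and 113 FPKM in the wild-type column, a ratio of 0.09. It shares 31.0% of its 50-base windows with the readthrough gene BCL2L2-PABPN1 on the same strand, so that reads there cannot be assigned with certainty. That readthrough had 6.45 FPKM in the knockout column and 6.40 FPKM in the wild-type column. Of 8 other genes in a list of poly(A)-binding proteins, PABPC1L and ZC3H14 reached 1 FPKM, 4 had values under 1 FPKM, and PABPC1L2A and PABPC1L2B were listed at 0 in both columns, which may be a failed estimate. PABPC1L had 27.2 FPKM in the knockout column and 28.6 FPKM in the wild-type column, and ZC3H14 had 59.4 FPKM in the knockout column and 58.4 FPKM in the wild-type column.

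LARP1 was the member with the highest ratio, 0.15. It had 273 FPKM in the knockout column and 245 FPKM in the wild-type column, a 1.11-fold difference, and 30.7% of the 2528 genes with a mean of 50 FPKM or more lay at least as far from 0. Its paralogue LARP1B had 19.99 FPKM in the knockout column and 20.3 FPKM in the wild-type column, a ratio of -0.02. LARP1 thus supplied 93.2% of the summed LARP1 and LARP1B level in the knockout column and 92.4% in the wild-type column. Their coding sequences are identical at 68.4% of aligned bases, and no 50-base window of LARP1 occurs in another gene.

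LARP4 had 56.4 FPKM in the knockout column and 52.1 FPKM in the wild-type column, a ratio of 0.12. LARP4B had 71.7 FPKM in the knockout column and 67.7 FPKM in the wild-type column, a ratio of 0.08. LARP4 made up 44.1% of their sum in the knockout column and 43.5% in the wild-type column. Both ratios lay inside the central 95% of genes with a mean of 50 FPKM or more, which ran from -0.35 to 0.32.

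SSB, the La protein itself, had 175 FPKM in the knockout column and 168 FPKM in the wild-type column, a ratio of 0.06. It overlaps METTL5 on the opposite strand over 572 exon bases, and METTL5 stood at 119 FPKM in the knockout column and 116 FPKM in the wild-type column. The libraries were made with a directional kit, but whether counting used the strand is not stated in the sources used here. In addition, 10.4% of the 50-base windows of SSB occur in 4 processed pseudogenes.

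LARP7, which holds and protects the 7SK RNA, had the lowest ratio of the 10. It stood at 68.1 FPKM in the knockout column and 88.7 FPKM in the wild-type column, 1.30-fold lower, a log2 ratio of -0.38. This is outside the central 95% of genes with a mean of 50 FPKM or more, and 2.06% of those 2528 genes had a ratio at or below it. On the measure given for LARP1, 3.36% of them lay at least as far from 0. LARP7 is also the most extreme of 10 genes. LARP7 shares a single 50-base window with another gene. It overlaps ZGRF1 on the opposite strand over 32 exon bases, and ZGRF1 had 16.2 FPKM in the knockout column and 16.4 FPKM in the wild-type column. An antisense gene model overlaps a further 302 exon bases and was not analysed here.

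LARP6, the collagen mRNA binder, stood at 25.05 FPKM in the knockout column and 31.4 FPKM in the wild-type column, 1.25-fold lower, a log2 ratio of -0.33. Among the 7740 genes with a mean from 5 to 50 FPKM, 6.55% had a ratio at or below it, and 10.5% lay at least as far from 0. The central 95% of that class ran from -0.45 to 0.38. LARP6 overlaps LRRC49 on the opposite strand over 123 exon bases, and LRRC49 had 14.8 FPKM in the knockout column and 14.6 FPKM in the wild-type column. In RNA from whole cultures, fewer cells that express a gene and less RNA per cell cannot be told apart.

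**Figure D2:**
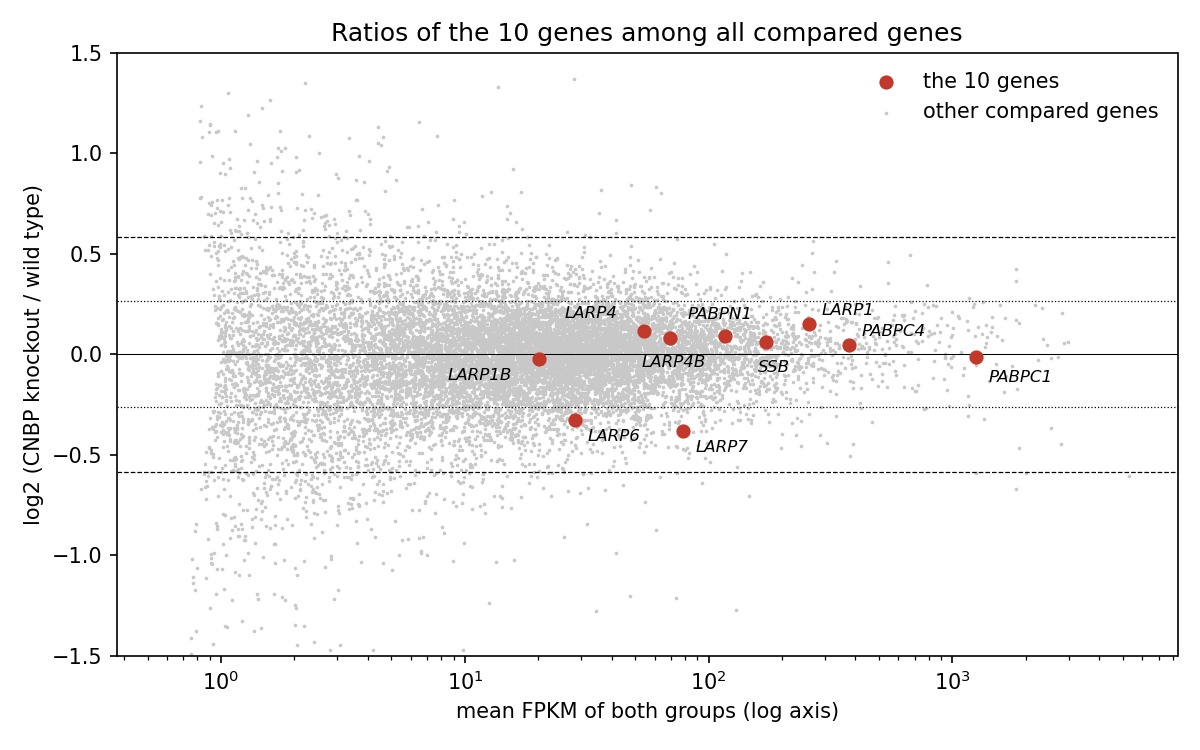
Log2 ratio of the CNBP knockout over the wild-type value against the mean FPKM of both groups (log axis), for the 10 genes (red) and all other compared genes (grey), with dashed lines at 1.5-fold and dotted lines at 1.2-fold. LARP6 and LARP7 lie below the lower dotted line, the other 8 lie between the dotted lines, and 39 genes fall beyond the axis limits of 1.5 either way.

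Neighbouring genes can share a shift, so each gene was set beside its 20 nearest compared genes in the gene order. The neighbours of LARP7 had a median ratio of 0.01 and ran from -0.77 to 0.25, and 19 of 20 were above LARP7. The neighbour below it was NDST4, at 0.944 FPKM in the knockout column and 1.62 FPKM in the wild-type column. The neighbours of LARP6 had a median of 0.03 and ran from -0.13 to 0.29, and all 20 were above LARP6. With the neighbours' median taken off, the ratio was -0.39 for LARP7 and -0.35 for LARP6, slightly farther from 0 than before. For LARP1 it was 0.18, for LARP4 0.16 and for LARP4B 0.18.

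**Figure D3:**
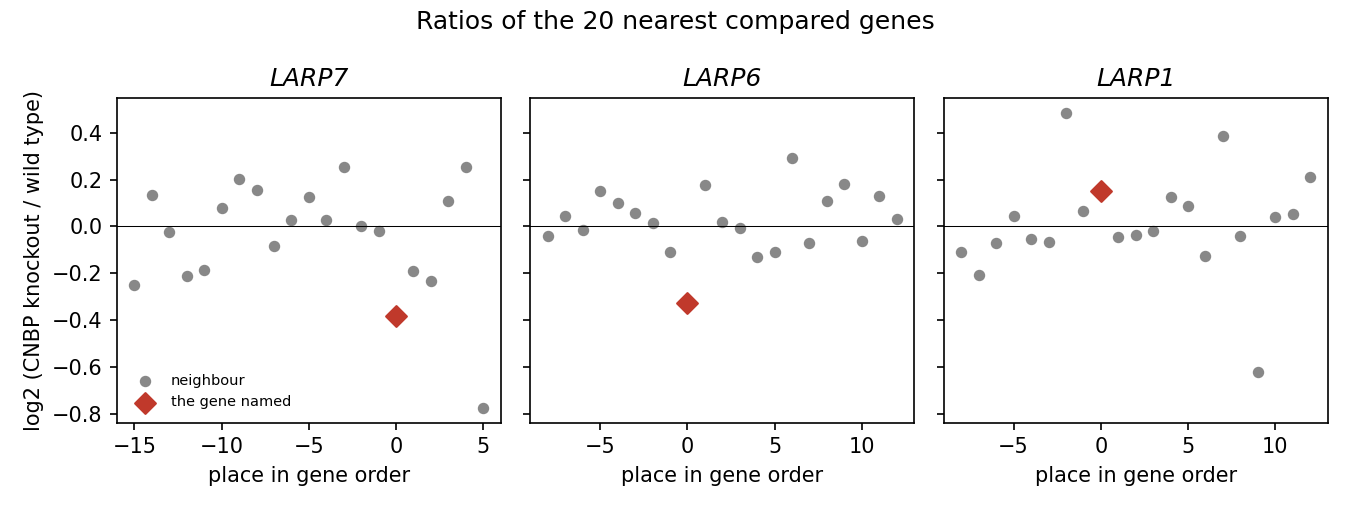
Log2 ratio of the CNBP knockout over the wild-type value for LARP7, LARP6 and LARP1 (red diamonds, place 0) and for the 20 nearest compared genes of each (grey), by place in the gene order. LARP7 lies below 19 of its 20 neighbours and LARP6 below all 20, while LARP1 lies above 17 of 20.

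The RNA that LARP1 recognises is written at the start site, where a TOP mRNA begins with a C and runs on in pyrimidines. The start sites below show this feature in 4 TOP mRNAs, printed at a start that has it, and its presence or absence in LARP genes and SSB. Of 14 genes of the TOP list with a listed start, 12 had the feature at one of their starts, EEF1G and VIM did not, and EEF1B2 also has a more upstream listed start without it. RefSeq starts on GRCh38.p14 were listed for 8 of the 10 genes, all but PABPC1 and PABPC4, with 18 starts in all. The most upstream start of LARP1, LARP6 and LARP7 and both starts of SSB are printed, 20 bases before the start and 20 from it, 5′ to 3′ on the gene's strand. Capitals mark an uninterrupted run of pyrimidines where the start is a C followed by 4 or more further pyrimidines. RACK1 is the gene listed as GNB2L1 in the deposited table.
LARP1, chr5:154682959-154682998, plus strand: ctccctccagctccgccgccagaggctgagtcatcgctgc
LARP6, chr15:70854138-70854177, minus strand: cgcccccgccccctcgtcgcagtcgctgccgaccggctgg
LARP7, chr4:112637123-112637162, plus strand: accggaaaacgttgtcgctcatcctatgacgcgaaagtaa
SSB upstream start, chr2:169798851-169798890, plus strand: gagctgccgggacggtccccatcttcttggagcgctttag
SSB downstream start, chr2:169799282-169799321, plus strand: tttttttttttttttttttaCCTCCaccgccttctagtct
EEF2, chr19:3985444-3985483, minus strand: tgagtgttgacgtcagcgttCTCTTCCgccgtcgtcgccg
EIF4A2, chr3:186783557-186783596, plus strand: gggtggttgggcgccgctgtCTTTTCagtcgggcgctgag
RACK1, chr5:181243887-181243926, minus strand: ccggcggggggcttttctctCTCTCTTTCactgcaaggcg
EEF1B2, chr2:206159875-206159914, plus strand: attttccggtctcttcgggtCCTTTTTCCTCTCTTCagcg

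Of the 18 listed starts of these genes, 1 had such a run, the downstream start of SSB. Over all 35116 starts in the table, 4.07% had one. A match of letters at a listed start is a description and not evidence that the mRNA begins there. Among the mRNAs with which LARP1 is known to work, 13 of 21 non-ribosomal TOP mRNAs, a list that holds PABPC1, had a ratio above 0 and 8 below. Their median was 0.03, and none was at 1.5-fold. Over all compared genes, 48.7% were above 0 and 4.27% reached 1.5-fold. With a mean of 50 FPKM or more, only 3 of 2528 genes were higher and 12 lower by 1.5-fold, so none among 21 says little. EEF2, the translocation factor of elongation, had 2481 FPKM in the knockout column and 2402 FPKM in the wild-type column. GNB2L1, a ribosome-bound scaffold, had 2703 FPKM in the knockout column and 2731 FPKM in the wild-type column. The highest ratios were those of the helicase EIF4A2 (0.28) and the elongation factor subunit EEF1B2 (0.25). With the median of the 20 nearest genes taken off, EIF4A2 was at 0.14 and EEF1B2 at 0.22, and EIF3L was then the highest at 0.24, named after its value was seen. Of 10593 compared genes with a listed start, 771 had a start with the pyrimidine run, and their median ratio was -0.00, against -0.01 for the 9822 without one. By 1.5-fold, 9 of the 771 were higher and 15 lower, and 119 of the 9822 were higher and 252 lower. The 771 were not uniform. The 44 ribosomal protein genes among them had a median of 0.12, with 35 above 0, 9 below and none at 1.5-fold, and the other 727 had a median of -0.01. The ribosomal protein genes were also the far more abundant, with a median level of 985 FPKM against 20.7 FPKM for those 727.

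Of the genes around the poly(A)-binding proteins, none of 19 partners and regulators of PABP was higher or lower by 1.5-fold, against 4.27% of all compared genes. The median ratio was 0.03. EIF4G1, the initiation factor that PABP contacts, had 378 FPKM in the knockout column and 341 FPKM in the wild-type column. GSPT1, the release factor eRF3a, had 163 FPKM in the knockout column and 183 FPKM in the wild-type column. Neither direction held with the neighbours' median taken off, where EIF4G1 went to -0.07 against 0.15 before, and GSPT1 to 0.00 against -0.17 before. PAIP2, an inhibitor that displaces PABP from poly(A), had the largest ratio of the list in either direction, -0.27, or -0.29 with its neighbours' median taken off. It had 131 FPKM in the knockout column and 158 FPKM in the wild-type column. TNRC6A, a scaffold of microRNA silencing, had a ratio of -0.24, which was -0.02 with its neighbours' median taken off.

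The genes that shorten and make the tail also held no member at 1.5-fold. Of all compared genes, 4.27% reached that fold and 48.7% were above 0. The 18 compared deadenylation genes had a median of 0.02, with 10 above 0 and 8 below. CNOT1, the scaffold of the CCR4-NOT complex, had 185 FPKM in the knockout column and 211 FPKM in the wild-type column, a ratio of -0.19 that turned to 0.14 with its neighbours' median taken off. Its deadenylase CNOT7 had 96.0 FPKM in the knockout column and 95.1 FPKM in the wild-type column. PARN, a poly(A)-specific ribonuclease, had the lowest ratio, -0.43, or -0.26 with its neighbours' median taken off. CCRN4L, the gene of nocturnin, had the highest, 0.41, or 0.51 with its neighbours' median taken off. CNOT3 was likewise listed at 0 in both columns, which may be a failed estimate. The 22 genes of cleavage and polyadenylation had a median of -0.02, with 9 above 0 and 13 below, or 11 and 11 with the neighbours' median taken off. PAPOLA, the canonical poly(A) polymerase, had 207 FPKM in the knockout column and 192 FPKM in the wild-type column. The 2 ratios farthest from 0 were those of NUDT21 and CPSF6, whose proteins are subunits of cleavage factor I. CPSF7, which encodes another subunit of it and was named after its value was seen, went the other way. It had 50.2 FPKM in the knockout column and 47.9 FPKM in the wild-type column, a ratio of 0.07. NUDT21 had 85.8 FPKM in the knockout column and 108 FPKM in the wild-type column, a ratio of -0.33, which was -0.05 with the neighbours' median taken off. CPSF6 had 128 FPKM in the knockout column and 157 FPKM in the wild-type column, a ratio of -0.30, which was -0.37 with the neighbours' median taken off.

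LARP7 works with a small set of 7SK proteins, and those differed in direction. HEXIM1, the inhibitor that 7SK brings to the kinase P-TEFb, had 14.9 FPKM in the knockout column and 10.2 FPKM in the wild-type column, a ratio of 0.55. Its paralogue HEXIM2 had 3.39 FPKM in the knockout column and 4.40 FPKM in the wild-type column, a ratio of -0.38. MEPCE, the enzyme that caps 7SK, had 43.7 FPKM in the knockout column and 35.5 FPKM in the wild-type column, a ratio of 0.30, and was named after its value was seen. The elongation cofactor AFF4 had a ratio of 0.03. Over the 9 genes of the list, 5 ratios were above 0 and 4 below, the median was 0.03, and none reached 1.5-fold. Of all compared genes, 48.7% were above 0 and 4.27% reached that fold.

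A list for RNA polymerase III, whose products SSB binds, had 14 of 24 compared genes above 0 and 10 below, with a median of 0.02 and none at 1.5-fold. Of all compared genes, 48.7% were above 0 and 4.27% reached that fold. Besides the polymerase and its transcription factors, the list holds ELAC2, TRNT1 and TROVE2, which are neither. Their ratios of 0.09, 0.03 and 0.04 count among the 14. Its 2 lowest ratios were those of the alternative polymerase subunits POLR3GL (-0.37) and POLR3G (-0.31). The most abundant were ELAC2, which trims the ends of transfer RNAs, with a ratio of 0.09, and GTF3C1, a subunit of TFIIIC, with -0.16. Both were at 0.00 or -0.00 with the neighbours' median taken off. BDP1 was listed at 0 in both columns, which may be a failed estimate and does not show that the gene is silent.

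The collagen mRNAs that LARP6 binds had ratios below 0, none at 1.2-fold, a fold that 21.8% of all compared genes reached. COL1A1 had 38.2 FPKM in the knockout column and 41.3 FPKM in the wild-type column, a ratio of -0.11. COL1A2 had 40.1 FPKM in the knockout column and 47.8 FPKM in the wild-type column, a ratio of -0.25. STRAP, a LARP6 partner, had a ratio of -0.05, which was 0.11 with its neighbours' median taken off. The list of 6 genes related to LARP4 and LARP6, which shares GNB2L1 with the TOP list, had a median of -0.06, with 1 gene above 0 and 5 below. With the neighbours' median taken off, 3 were above 0 and 3 below, and the median was -0.01.

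The mTORC1 pathway, which controls LARP1, had 1 of 28 genes at 1.5-fold. That count is close to the share over all compared genes, 4.27%. The gene was DDIT4, an inhibitor of mTORC1, with 71.2 FPKM in the knockout column and 43.2 FPKM in the wild-type column. Its ratio was 0.72, or 0.76 with its neighbours' median taken off. The list's median was 0.01, with 17 ratios above 0 and 11 below, against 48.7% above 0 over all compared genes.

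**Figure D4:**
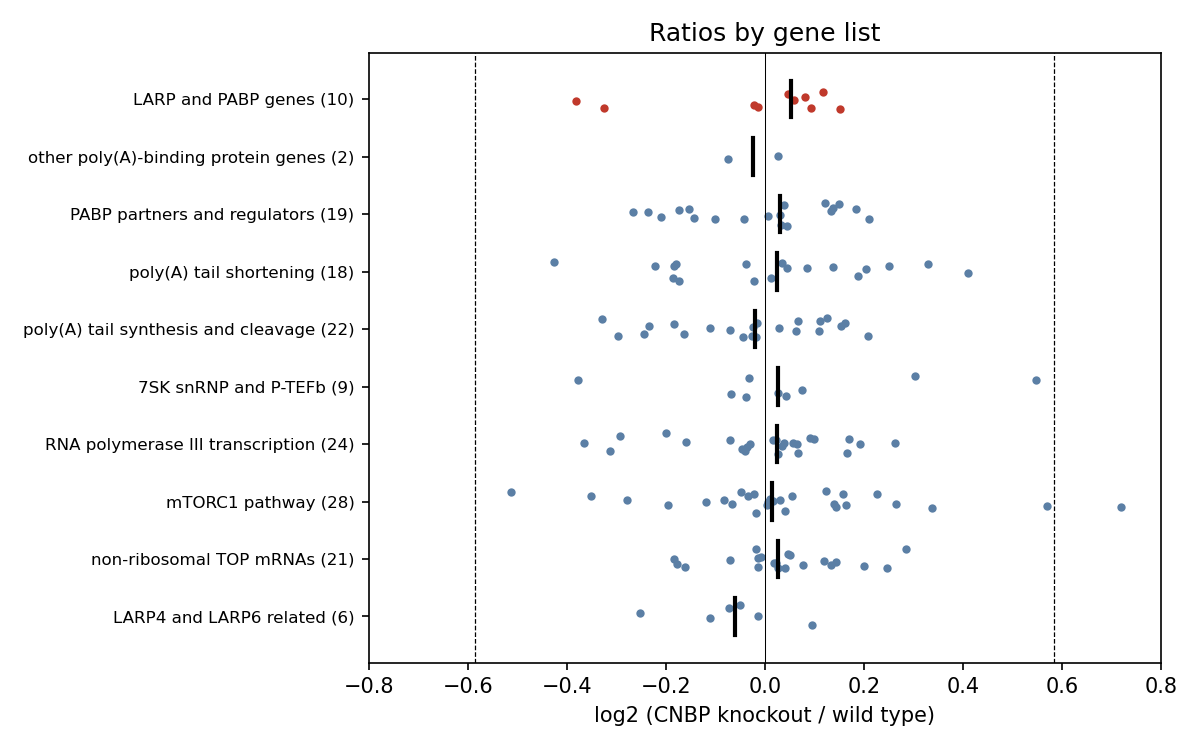
Log2 ratio of the CNBP knockout over the wild-type value by gene list, with 1 point per compared gene (red for the 10 LARP and PABP genes), a black bar at each list's median, the number of genes in brackets and dashed lines at 1.5-fold. The medians lie between -0.06 and 0.05, and DDIT4 is the only gene beyond a dashed line.

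The series title raises the question of G-rich coding sequence, and the 10 genes differed in it. Each gene's longest coding sequence was taken from GENCODE release 29. G made up 21.5% of it in LARP4 up to 35.4% in PABPN1, against a median of 26.6% over 13103 compared genes. LARP6 had 30.4% G, LARP1 26.3% and LARP7 22.7%. The motif TGGAG, which does not measure G content as a whole, was counted on the coding strand. It occurred in all 10, at 0.90 per kb in LARP1B up to 5.43 per kb in PABPN1 and 5.42 per kb in LARP6, against a median of 2.84 per kb over 13103 compared genes, of which 93.2% held it. LARP7 had 2.82 per kb and PABPC1 2.62 per kb, both near that median, and LARP1 had 3.59 per kb with 11 copies. The richest 60-base stretch of the coding sequence is shown for PABPN1, LARP6 and LARP1, which have 3, 2 and 2 copies in it, and for LARP7, which has 1, with TGGAG in capitals. PABPC1 also reaches 2 copies and is not printed, and the other 5 genes reach 1.
PABPN1, coding bases 130 to 189: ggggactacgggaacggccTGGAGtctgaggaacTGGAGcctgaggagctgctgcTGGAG
LARP6, coding bases 214 to 273: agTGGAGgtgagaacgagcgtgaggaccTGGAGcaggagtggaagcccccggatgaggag
LARP1, coding bases 2566 to 2625: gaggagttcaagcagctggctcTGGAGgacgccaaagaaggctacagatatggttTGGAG
LARP7, coding bases 352 to 411: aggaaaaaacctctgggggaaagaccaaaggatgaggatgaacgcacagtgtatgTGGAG

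Stretches of 60 bases with 2 or more copies were found in 44.7% of the 13103 genes and with 3 or more in 6.67%. Whether the motif density goes with the ratios was not tested. The 10 genes are few, and their ratios have no replicate spread against which an order could be judged. PABPN1 and LARP6, the 2 with the highest densities, had ratios of 0.09 and -0.33. LARP1B, LARP4 and LARP4B, the 3 with the lowest densities, had ratios of -0.02, 0.12 and 0.08. The values concern mRNA levels, and binding and translation were not analysed here.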

How the data were processed

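Total RNA was made into directional libraries, per the labels' protocols. The submitters' processing notes name TopHat, Cufflinks, Cuffdiff and hg19 but no versions. The authors deposited 1 FPKM value per gene and group, made with those tools per the submitters' processing notes. The unit is absent from the file headers and was read from the tools and the size of the values. They sum to 612941 in the knockout and 612366 in the wild-type column. The sources used here do not state the annotation or how libraries were combined. The longest transcript length per gene is another column the authors deposited.

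Ratios were computed without a pseudocount. With 1 value per group no test was run, and a fold of 1.5 or more (or 1.2) stands in its place. The genes and lists were chosen with earlier results of these data known. All 10 genes were named, and in each list up to 4 genes at 1.5-fold or, where there was none, the 2 most abundant and the 2 with the largest ratios. A gene that this rule names is not reported here. Gene order, overlaps and coding sequences came from GENCODE release 29 by Ensembl ID (19225 of 19892 matched), on another build than the authors', and start sites from RefSeq by Entrez ID. Python 3.11.15, numpy 2.4.6, pandas 2.3.3, Biopython 1.88 and matplotlib 3.10.9 were used.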

Additional observations from a re-analysis of the deposited data

How the results depend on the processing

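No paired analysis was possible because the table holds 1 value per group, and for the same reason no library could be left out. The alternatives were pseudocounts of 1 and 0.1, centring on the median, the median of the 20 nearest genes taken off, a minimum of 5 FPKM or none, and a 1.2-fold threshold. All 40 alternative ratios of the 10 genes moved by at most 0.1, and 1 changed sign: PABPC1 was at 0.03 with the neighbours' median taken off. No setting brought any of the 10 to 1.5-fold, and at 1.2-fold 2 were lower. The counts over all compared genes, 196 higher and 368 lower, were 74 and 141 with a pseudocount of 1, 53 and 126 with a minimum of 5 FPKM, 945 and 1141 with no minimum, and 1139 and 1741 at 1.2-fold. Of 54 alternative list medians, 53 moved by at most 0.1. The exception was the list of other poly(A)-binding genes, at 0.23 with no minimum, where genes under 1 FPKM enter by construction. That median and the one for cleavage and polyadenylation, 0.01 with the neighbours' median taken off, changed sign. Cufflinks estimates for overlapping or near-identical genes carry an error that the table does not show.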
